A study of Homo sapiens with 16 samples.

Results

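CRISPR interference (CRISPRi) at an enhancer of MYB was compared with a control guide in SNU719 and YCC10, human gastric cancer cell lines. The comparison holds the 4 CRISPRi libraries of the 16 in the series. They are 1 library with the guide sgMYB-E3 and 1 with the guide sgCtrl in each line, all numbered replicate 1. Both arms carry the treatment label CRISPRi editing. The sgCtrl libraries have the genotype label WT and the sgMYB-E3 libraries the genotype label MYB knockdown. SNU719 grew in RPMI1640 and YCC10 in EMEM. The 8 libraries of the MYB set (siCtrl and siMYB, 2 each per line) and the 4 of the TCF7 set (siCtrl and siTCF7, 1 each per line) served as a scale for the spread and for the level of MYB. The labels do not state whether cells were pooled or cloned after editing, and which repressor was used is not stated there. With 1 library per arm and line the 2 lines are the only replicates of the guide effect, and the smallest p that an exact permutation of their arms allows is 0.5. Nothing in the labels says that the 2 libraries of a MYB-set group came from separate cultures, so p-values that rest on them measure only the spread between those libraries, which may be technical.

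MYB is a transcription factor that binds short AACNG-type sites and is known for keeping blood progenitors and colonic crypt cells dividing. Enhancers are distal elements that loop to a promoter and raise its transcription. In CRISPRi a catalytically dead Cas9, usually fused to a repressor domain, is brought to such an element by a guide RNA and lowers its activity without cutting the DNA. An siRNA acts later, by degrading the mRNA itself. MYB is widely known in leukaemia and adenoid cystic carcinoma for activation through distant enhancers.

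MYB lies on the plus strand of chromosome 6, at chr6:135181308-135219172 of GRCh38.p14 in RefSeq. The guide's sequence and the position of E3 are not used here. The 250 bases before the RefSeq start of MYB are shown because the guide is named for this gene. Those before the RefSeq starts of LCK, a tyrosine kinase gene, are shown because LCK was the lower gene with a usable window among the genes called over both lines. The windows are chr6:135181058-135181307 for MYB, chr1:32251015-32251264 for the first LCK start and chr1:32273871-32274120 for the other LCK start, all on the plus strand and read 5′ to 3′. Capitals mark the MYB core motif AACNG, searched on both strands, of which each window holds 1 match.
MYB: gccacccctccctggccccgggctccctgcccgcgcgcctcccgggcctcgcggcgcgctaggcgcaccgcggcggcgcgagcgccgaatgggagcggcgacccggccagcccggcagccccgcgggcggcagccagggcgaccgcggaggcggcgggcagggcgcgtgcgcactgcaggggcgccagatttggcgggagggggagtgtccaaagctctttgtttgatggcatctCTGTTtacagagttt
LCK start 1: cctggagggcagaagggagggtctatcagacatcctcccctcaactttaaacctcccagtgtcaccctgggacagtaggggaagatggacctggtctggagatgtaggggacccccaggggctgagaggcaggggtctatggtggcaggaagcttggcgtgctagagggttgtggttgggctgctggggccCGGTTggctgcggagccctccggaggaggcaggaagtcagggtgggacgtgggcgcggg
LCK start 2: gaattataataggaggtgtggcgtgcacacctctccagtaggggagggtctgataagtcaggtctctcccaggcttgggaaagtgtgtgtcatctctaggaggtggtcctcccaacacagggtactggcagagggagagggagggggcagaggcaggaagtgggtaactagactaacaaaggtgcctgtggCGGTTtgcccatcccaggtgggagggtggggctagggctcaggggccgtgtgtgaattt
The motif is common. It occurs in 70.6% of all 34961 RefSeq windows of 250 bases before a gene start. Of the 9296 tested genes with a window, 74.6% hold it in at least 1 of their windows. Its presence in these promoters therefore describes the sequences and marks no site of binding.

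The 4 libraries were similar in depth and all held epithelial markers, while gastric markers differed between the lines. Relative depth, estimated from the steps between values under 0.05 FPKM (fragments mapped to a gene, divided by its length and by the size of the library), was 0.814 for SNU719 sgMYB-E3, 0.858 for YCC10 sgCtrl and 0.815 for YCC10 sgMYB-E3, with SNU719 sgCtrl set to 1. Between 11586 and 12085 genes reached 1 FPKM. All 7 epithelial markers, among them EPCAM and KRT8, reached 1 FPKM in some library, with summed levels of 4683 to 8478 FPKM. Of the 6 gastric markers 3 did (TFF1, TFF2 and PGC, mainly in YCC10). The mucins MUC5AC and MUC6 and the junction gene CLDN18 were near 0 in all 4 libraries, and TFF2 and PGC were near 0 in SNU719. Of the 6 leukocyte markers only LYZ, the lysozyme gene, reached 1 FPKM, and the B-cell marker MS4A1 was listed at 0 in all 4 libraries. None of the 4 fibroblast or 3 endothelial markers did.

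MYB mRNA was lower with the enhancer guide in both lines. In SNU719 its level was 47.64 FPKM with sgCtrl and 18.34 FPKM with sgMYB-E3, which left 38.5% of the control. In YCC10 it was 21.11 FPKM with sgCtrl and 12.33 FPKM with sgMYB-E3, which left 58.4%. Each sgMYB-E3 library was below every control library of its line: the 3 siCtrl libraries held 44.22 to 45.67 FPKM in SNU719 and 25.56 to 29.36 FPKM in YCC10. Against sgCtrl, log2(FPKM + 1) changed by -1.33 in SNU719 and by -0.73 in YCC10. The siRNA went further, to 9.664 and 8.452 FPKM in SNU719 and to 1.948 and 1.427 FPKM in YCC10. The siTCF7 libraries, aimed at another gene, also held less MYB than their controls, at 25.27 FPKM in SNU719 and 5.396 FPKM in YCC10.

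**Figure D1:**
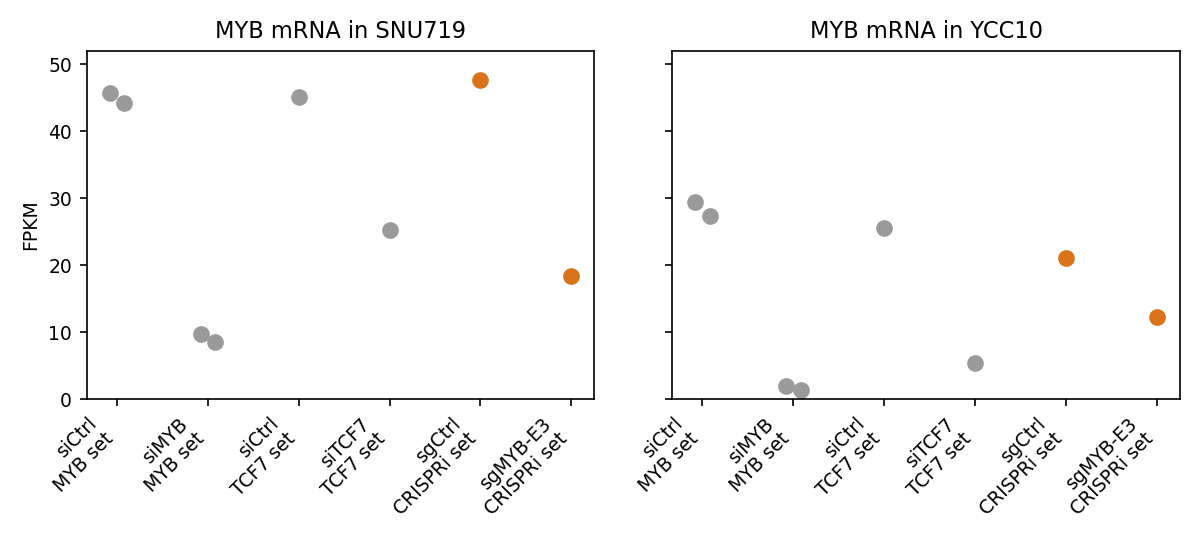
MYB level in FPKM (linear axis from 0) in each of the 16 libraries, SNU719 on the left and YCC10 on the right, 1 point per library and the CRISPRi set in orange. The sgMYB-E3 points, at 18.34 and 12.33 FPKM, lie below all control points of their line and above the siMYB points.

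The strength of the MYB call depended on the fit. Over both lines the mean change was -1.03 (SE 0.181, limma adjusted p = 0.778 over all 12321 genes tested, lower in 2 of 2 lines), which did not pass the threshold of 0.05. A version without short RNA genes, chosen after seeing the data because many were listed at 0 in 1 library and at high values in another, gave an SE of 0.128 and an adjusted p of 0.0885 by limma. The change itself stayed -1.03, and the SE differed because limma takes most of each gene's spread in this fit from the other genes tested. Within a line the lone libraries were assumed to vary like the MYB-set duplicates. Under that assumption MYB fell in SNU719 (SE 0.158, limma adjusted p = 0.0422, and 0.0375 without short RNA genes), a call that several alternatives ended. It was lost with a pseudocount of 0.1 (adjusted p = 0.109, and 0.0881 without short RNA genes), after median-of-ratios scaling (0.0692 and 0.0532), with a block for the replicate number over all genes (0.0663, but 0.0103 without short RNA genes), and on leaving out any 1 of the 6 MYB-set libraries other than YCC10 siMYB (0.0923 to 0.135, and 0.0854 to 0.097). In YCC10 it did not pass (limma adjusted p = 0.362, and 0.42 without short RNA genes). The difference between the lines, 0.60 on the log2 scale (SE 0.215), did not pass either (limma adjusted p = 1 without short RNA genes). The enhancer guide lowered MYB less than the siRNA did, by 1.79 on the log2 scale of the mean over lines (SE 0.132, limma adjusted p = 0.000717 without short RNA genes).

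No change was called for the neighbours of MYB. Of the 8 other genes in the table that start within 1 Mb of MYB, 2 had enough signal to test. HBS1L, a ribosome rescue factor gene upstream of MYB, had 9.034 and 8.486 FPKM with sgCtrl and sgMYB-E3 in SNU719 and 9.703 and 8.733 FPKM in YCC10 (mean log2 change -0.11, SE 0.065, limma adjusted p = 0.69). AHI1, a cilium gene downstream, had 4.494 and 4.402 FPKM in SNU719 and 3.423 and 3.453 FPKM in YCC10 (mean log2 change -0.01, SE 0.075, limma adjusted p = 0.988). The MYB paralogues did not pass either: MYBL2, the cell cycle member, went from 97.42 to 90.59 FPKM in SNU719 and was 101.5 FPKM in both YCC10 libraries, and MYBL1 went from 1.99 to 1.833 FPKM and from 2.263 to 2.886 FPKM. TCF7, the WNT pathway factor studied in the same series, stood at 24.52 and 25.64 FPKM in SNU719 and at 20.79 and 21.71 FPKM in YCC10.

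Across all genes few were called. With 1 library per arm and line this does not show that few transcripts changed. Over both lines limma called 13 of 12321 genes (7 higher and 6 lower, 0.106% called, 642 at an unadjusted p under 0.05). All 13 were short RNA genes such as MIR637, SCARNA4 and SNORD24, and 12 of them were listed at 0 in at least 1 of the 4 libraries. Without short RNA genes 5 of 11873 were called (2 higher and 3 lower, 0.0421% called, 1127 at an unadjusted p under 0.05). None of these 5 passed over all genes, where UBD had a limma adjusted p of 0.205. As a scale, 1.44% of 11873 genes in SNU719 and 1.16% in YCC10 differed by at least 0.5 on the log2 scale (1.41-fold) between the guides, against 1.72% and 1.45% between the 2 siCtrl libraries of the MYB set and 2.03% and 1.53% between the 2 siMYB libraries. Within each line the guide arms thus had a smaller share of genes past the fold than either pair of duplicates. The duplicates differ in replicate number, and their replicate differences correlated at 0.535 within SNU719 and 0.7 within YCC10. Both guide arms are numbered 1. Relative depths in the MYB set, 0.463 to 0.895, also reached lower than in the CRISPRi set. Whether this widens the scale was not tested. The sets differed far more: sgCtrl and the TCF7-set siCtrl library of the same line were past that fold for 12.5% of genes in SNU719 and 20.3% in YCC10.

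Across the 11873 genes the changes in the 2 lines had a Pearson r of 0.202 and the same sign in 54.6%. With the mean required to reach 5 FPKM, r was 0.246 over 8507 genes. Genes are not independent replicates, and each change rests on 1 library per arm. Only 9 genes were past the fold upward in both lines (0.0758%) and 12 downward (0.101%), MYB among the latter.

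**Figure D2:**
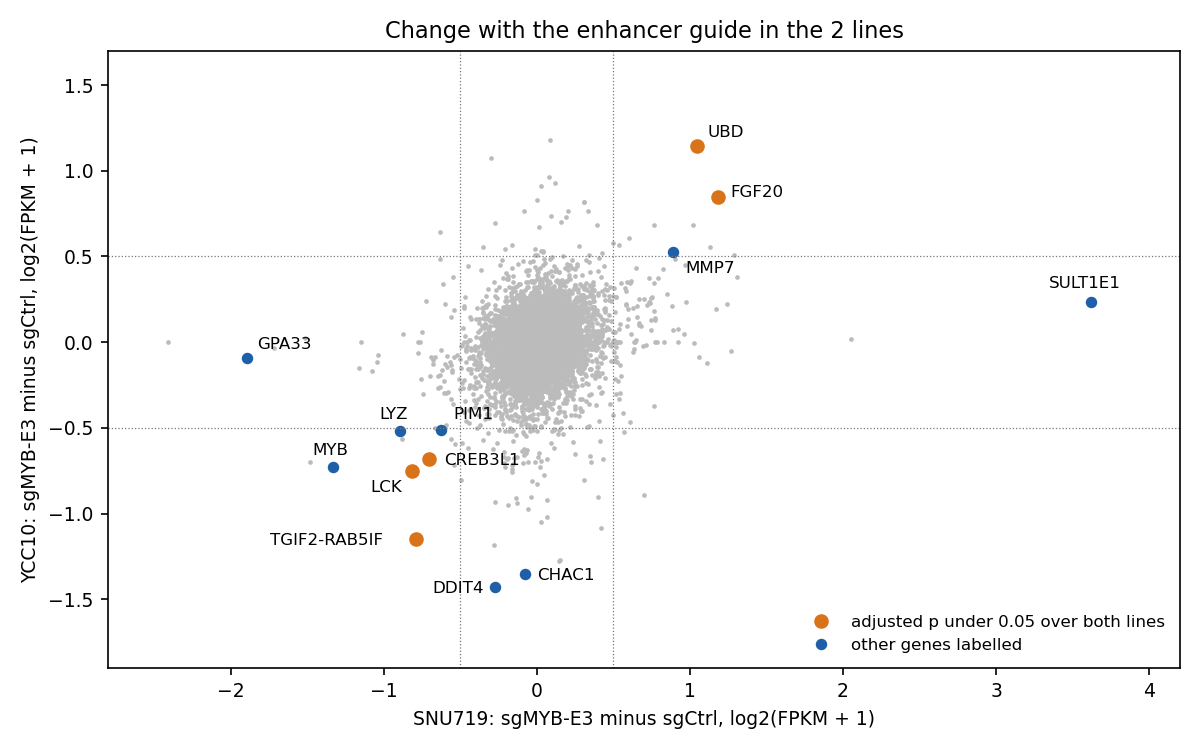
Change with sgMYB-E3 in log2(FPKM + 1), SNU719 on the horizontal and YCC10 on the vertical axis, 1 point per gene for the 11873 genes without short RNA genes, with dotted lines at the fold of 0.5. The 5 genes called over both lines are orange, other labelled genes are blue, and SULT1E1 lies far to the right at 3.62 in SNU719 and 0.23 in YCC10.

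UBD and FGF20 rose in both lines when short RNA genes were left out. UBD encodes FAT10, a ubiquitin-like protein induced by inflammatory cytokines. It was listed at 6.064 and 13.56 FPKM with sgCtrl and sgMYB-E3 in SNU719 and at 5.411 and 13.2 FPKM in YCC10, and the sgMYB-E3 libraries were above the sgCtrl libraries of both lines (mean log2 change 1.10, SE 0.068, limma adjusted p = 0.00782). Its 7 rows in the table were summed, and the siCtrl libraries reached 5.855 FPKM in SNU719 but 19.45 to 51.62 FPKM in YCC10, so both CRISPRi libraries of YCC10 were below every siCtrl library of that line. The siRNA moved UBD in opposite directions, by -0.89 in SNU719 and by 1.27 in YCC10. UBD was not called when every gene was kept regardless of level (limma adjusted p = 0.823), as was also so for the other 4 genes, and a fit of all 16 libraries with a block for the replicate number called none of the 5. With a pseudocount of 0.1 UBD alone of the 5 was called. In the fit of all 16 libraries without that block UBD lost its call (limma adjusted p = 0.101), and it kept the call when siTCF7 was fitted per line (0.000622).

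FGF20, a fibroblast growth factor, had 4.57 and 11.62 FPKM with sgCtrl and sgMYB-E3 in SNU719 and 4.326 and 8.571 FPKM in YCC10. Both sgMYB-E3 libraries exceeded both sgCtrl libraries (mean log2 change 1.01, SE 0.092, limma adjusted p = 0.0371). The siRNA changed it by 1.11 and 1.25 in the same lines, where its siCtrl levels were 2.603 to 3.096 FPKM and 1.1 to 1.25 FPKM.

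CREB3L1, LCK and TGIF2-RAB5IF fell. CREB3L1, a membrane-bound transcription factor of the secretory pathway, had 9.164 and 5.246 FPKM with sgCtrl and sgMYB-E3 in SNU719 and 19.14 and 11.56 FPKM in YCC10 (mean log2 change -0.69, SE 0.064, limma adjusted p = 0.0371). The siRNA moved it the other way, by 0.14 in SNU719 and 0.34 in YCC10. Its siCtrl levels were 8.982 to 12.4 FPKM in SNU719, above the sgMYB-E3 library, and 6.87 to 11.66 FPKM in YCC10, a range that holds the sgMYB-E3 value and lies below sgCtrl. LCK, a Src-family kinase best known from T cells, had 1.886 and 0.6377 FPKM in SNU719 and 14.92 and 8.442 FPKM in YCC10 (mean log2 change -0.79, SE 0.074, limma adjusted p = 0.0371). The siRNA changed LCK by 0.12 in SNU719 and by -2.15 in YCC10. Its siCtrl levels were 1.373 to 1.45 FPKM in SNU719, above the sgMYB-E3 library, and 6.845 to 15.05 FPKM in YCC10, a range that holds both CRISPRi libraries. T-cell and pan-leukocyte markers were near 0 beside it, with CD3E at most 0.0346 FPKM and PTPRC at most 0.0253 FPKM. TGIF2-RAB5IF, a readthrough symbol that shares exons with its parent genes and is uncertain, had 5.988 and 3.035 FPKM in SNU719 and 8.003 and 3.063 FPKM in YCC10 (mean log2 change -0.97, SE 0.098, limma adjusted p = 0.0452). Its siCtrl levels were widely spread, at 6.191 to 19.18 FPKM in SNU719 and 3.668 to 13.59 FPKM in YCC10. Its call was lost in the fit of all 16 libraries (limma adjusted p = 1).

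The genes ranked next by the smaller of their 2 changes did not pass the threshold. After median-of-ratios scaling LYZ, PIM1, KLF5, EVPL, PCP4, MMP7, CNN3 and TSPAN8 did (limma adjusted p from 0.0067 to 0.0492). In the fit of all 16 libraries none of these genes passed (limma adjusted p from 0.0508 for LYZ to 0.9998 for MMP7). With no filter on low values none passed either (limma adjusted p = 0.823 for each). Among the lower ones, LYZ had 1214 and 652.6 FPKM with sgCtrl and sgMYB-E3 in SNU719 and 4187 and 2921 FPKM in YCC10 (mean log2 change -0.71, SE 0.077, limma adjusted p = 0.059). Its siCtrl range was 1307 to 1495 FPKM in SNU719 and 3917 to 4529 FPKM in YCC10, above the sgMYB-E3 library of each line. PIM1, a survival kinase gene, had 17.28 and 10.83 FPKM in SNU719 and 9.072 and 6.074 FPKM in YCC10 (mean log2 change -0.57, SE 0.068, limma adjusted p = 0.0865), and all 4 values were below the siCtrl ranges of 22.21 to 29.18 FPKM and 14.28 to 16.67 FPKM. KLF5, a factor of proliferating gut epithelium, had 92.95 and 72.89 FPKM in SNU719 and 107.7 and 82.31 FPKM in YCC10 (limma adjusted p = 0.121). The envoplakin gene EVPL, TLN2, CYP4F12, TGFBR3 and NCOA7 were also lower in both lines, with mean log2 changes from -0.46 to -0.39.

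Among the higher ones, PCP4, a calmodulin-binding peptide gene, had 48.95 and 92.22 FPKM with sgCtrl and sgMYB-E3 in SNU719 and 6.942 and 10.11 FPKM in YCC10 (mean log2 change 0.69, SE 0.098, limma adjusted p = 0.118). All 4 PCP4 values, those of sgCtrl included, were above the siCtrl ranges of 31.99 to 43.17 FPKM in SNU719 and 2.444 to 6.634 FPKM in YCC10. The matrix protease gene MMP7 was barely present in SNU719, at 0.1785 and 1.185 FPKM, and had 45.23 and 65.57 FPKM in YCC10 (mean log2 change 0.71, SE 0.094, limma adjusted p = 0.11). All 4 MMP7 values were below the siCtrl ranges of 4.503 to 6.547 FPKM in SNU719 and 86.24 to 120 FPKM in YCC10. CNN3, an actin-binding protein gene, had 62.6 and 83.25 FPKM in SNU719 and 76.07 and 107.1 FPKM in YCC10 (mean log2 change 0.45, SE 0.055, limma adjusted p = 0.0885). The tetraspanin gene TSPAN8 had 157.7 and 199.5 FPKM in SNU719 and 316.3 and 438.6 FPKM in YCC10 (mean log2 change 0.40, SE 0.051, limma adjusted p = 0.0885), with siCtrl at 261.9 to 298.3 FPKM and 427.3 to 509.6 FPKM. FILIP1L, NMUR2, EMP1, PRSS23, KITLG, NRP1 and WWOX were higher by 0.38 to 0.56. Of these, PRSS23 was called within SNU719 with and without short RNA genes, and EMP1 was called there over all genes only. Those calls rest on the assumption that lone libraries vary like duplicates. Direction under the siRNA was mixed: MMP7 changed by 1.54 and 2.33 with siMYB and TSPAN8 by 1.04 and 0.89, while CNN3 changed by -0.18 and -0.32 and WWOX by -0.62 and -0.42.

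**Figure D3:**
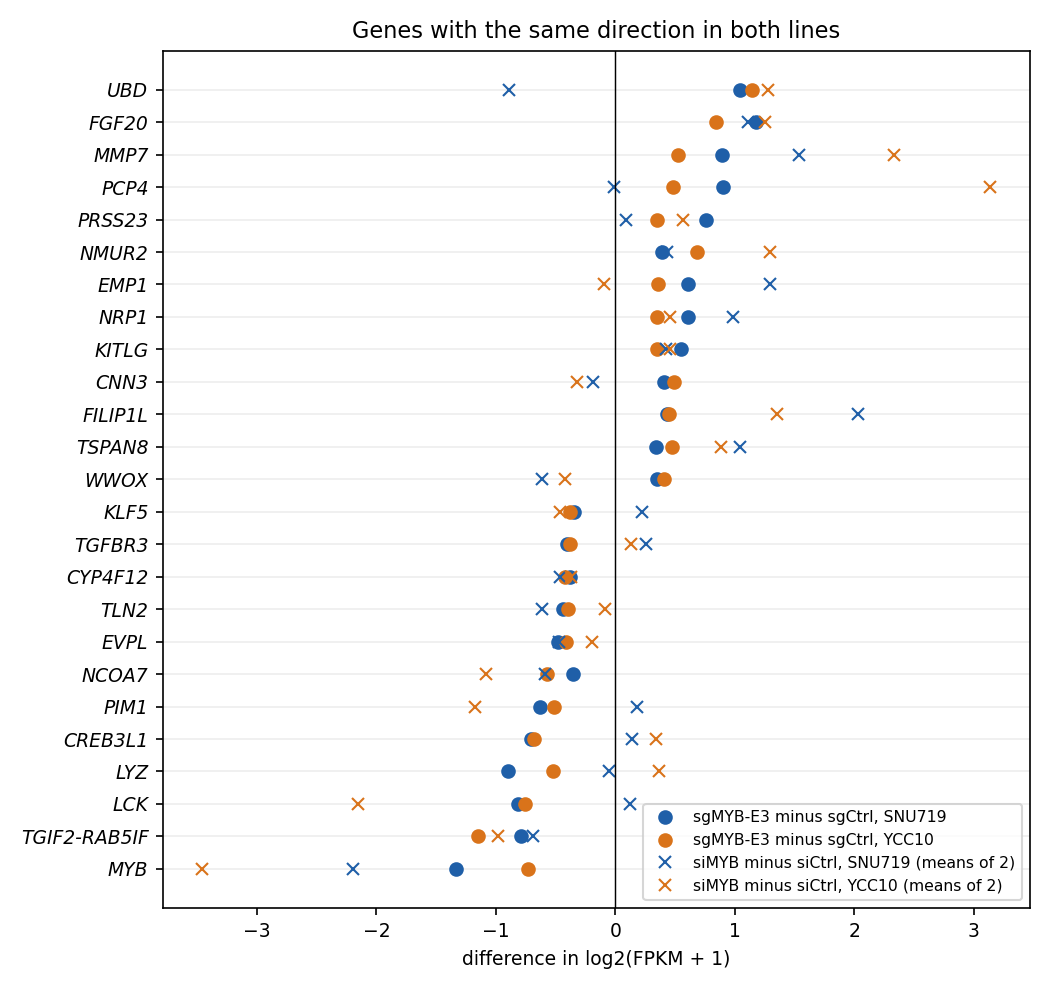
Difference in log2(FPKM + 1) for UBD and the 24 ranked genes, circles for sgMYB-E3 minus sgCtrl and crosses for siMYB minus siCtrl, SNU719 in blue and YCC10 in orange. The 24 genes were ranked by their smaller guide change, so circles on 1 side of 0 follow from the choice, and the crosses show the siRNA values of the same genes, such as 0.12 and -2.15 for LCK.

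Within SNU719 the fit over 12 group means called 88 of 12290 genes (51 higher and 37 lower, 0.716% called), of which 52 were short RNA genes. Without short RNA genes it called 18 of 11774 (10 higher and 8 lower, 0.153% called), and 79 with a block for the replicate number. SULT1E1, the oestrogen sulfotransferase, rose from 0.3538 FPKM to 15.65 FPKM (log2 change 3.62, SE 0.119, limma adjusted p = 6.48e-05), where the siCtrl libraries held 0.3147 to 0.5451 FPKM. The siRNA changed it by 2.41 in that line. Higher with the guide were also CEMIP2, a hyaluronidase, at 14.07 and 26.87 FPKM, and DST, the dystonin cytoskeletal linker, at 2.974 and 5.76 FPKM. CEMIP2 exceeded its siCtrl range of 14.96 to 20.72 FPKM, whereas DST did not exceed its range of 5.764 to 6.112 FPKM and sgCtrl was the library below it.

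GPA33, MEP1A, PHGR1, LYZ and CCN2 fell in SNU719 without short RNA genes. GPA33, the A33 antigen of intestinal cells, went from 30.05 to 7.357 FPKM (log2 change -1.89, SE 0.099, limma adjusted p = 0.000933), below its siCtrl range of 28.33 to 30.4 FPKM. MEP1A, a brush border protease gene, went from 23.21 to 9.917 FPKM, and PHGR1, a gut epithelial gene, from 99.75 to 44 FPKM. Both are less certain, since siCtrl MEP1A was 12.02 to 13.02 FPKM, below sgCtrl, and siCtrl PHGR1 ranged from 23.08 to 109.1 FPKM. The siRNA changed GPA33 by -1.50, MEP1A by -1.28 and PHGR1 by -0.58 in SNU719. CCN2, a matricellular YAP target, had 6.305 and 2.557 FPKM in SNU719 and 5.654 and 5.314 FPKM in YCC10. LYZ did not pass in SNU719 over all genes (limma adjusted p = 0.0652). With a pseudocount of 0.1 the adjusted p of GPA33 was 0.0671. Of the genes described here, SULT1E1 and GPA33 kept their call when any 1 MYB-set library was left out, while CEMIP2, DST, PHGR1, MEP1A and LYZ lost it for at least 1 of them.

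Within YCC10 the same fit called 61 of 12290 genes (34 higher and 27 lower, 0.496% called), 52 of them short RNA genes. Without short RNA genes 1 of 11774 was called (0.00849%), UBD, with a limma adjusted p of 0.0435 that rose to between 0.156 and 0.228 on leaving out 1 MYB-set library, while 513 genes had an unadjusted p under 0.05. With a block for the replicate number 32 were called. The difference of the guide effect between the lines passed for 95 of 12290 genes (0.773% called, 81 of them short RNA genes) and, without short RNA genes, for 2 of 11774 (0.017% called). These were SULT1E1, which had 18.83 and 22.3 FPKM in YCC10 (difference -3.39, SE 0.169, limma adjusted p = 0.0013), and GPA33 (difference 1.80, SE 0.14, limma adjusted p = 0.0157). GPA33 was near 0 in every YCC10 control, so it could not fall there and its difference restates the SNU719 value.

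Gene lists are described by counts and medians. The median over the 11873 genes was -0.00163 in SNU719 and 0.004 in YCC10, and 3321 genes were higher and 3164 lower in both lines. As a background for the counts of signs below, 5785 genes were above and 6020 below 0 in SNU719. In YCC10 6121 were above and 5570 below. LCK was the only list member called over both lines without short RNA genes, and MYB, LYZ and CCN2 were those called within SNU719. Over all genes AXIN2, PLK2, GADD45A and BAMBI were also called higher within SNU719, and PSAT1 and GARS1 lower within YCC10. No test of a list was made. Values for a bulk library cannot tell fewer cells of a type from less RNA per cell.

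**Figure D4:**
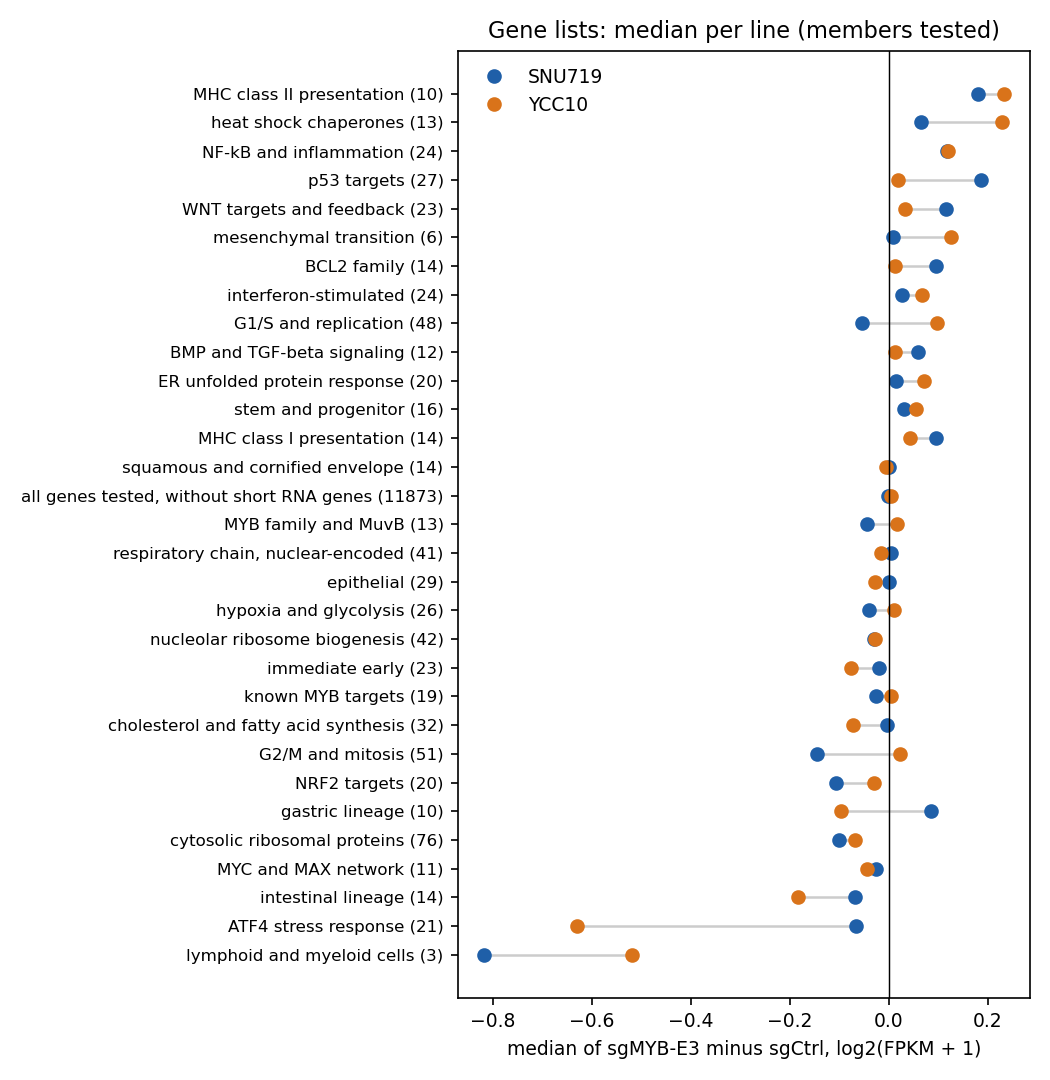
Median change with sgMYB-E3 in log2(FPKM + 1) over the tested members of each list, SNU719 in blue and YCC10 in orange, with the number of members in parentheses. The ATF4 list in YCC10 (-0.63) and the small lymphoid and myeloid list lie farthest from 0.

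ATF4 is the transcription factor of the integrated stress response, which switches on amino acid supply when translation is under stress. Its list of 21 tested genes had a median of -0.63 in YCC10 and -0.07 in SNU719. In YCC10 15 members were past the fold downward, against 0.817% of all genes, and in SNU719 none were, against 0.556%. DDIT4, an mTOR inhibitor gene, had 42.5 and 15.17 FPKM with sgCtrl and sgMYB-E3 in YCC10 and 29.07 and 23.89 FPKM in SNU719. CHAC1, which breaks down glutathione, had 34.16 and 12.78 FPKM in YCC10 and 4.819 and 4.5 FPKM in SNU719, and PCK2, the mitochondrial enzyme of gluconeogenesis, had 38.82 and 16.51 FPKM in YCC10 and 31.87 and 26.02 FPKM in SNU719. SLC7A5, a leucine transporter, had 103 and 54.49 FPKM in YCC10 and 54.08 and 52.52 FPKM in SNU719. Within YCC10 PSAT1 (0.0493) and GARS1 (0.0183) passed by limma adjusted p over all genes, and no member passed without short RNA genes, where the smallest adjusted p was 0.104. The siMYB medians of the list were -0.19 in SNU719 and -0.59 in YCC10. Of the 18 members with a promoter window, 4 (22.2%) held TGATGNAA on either strand, an ATF4-type element held by 2.28% of tested genes with a window. That share describes the list as chosen and not the effect of the guide.

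Cell cycle genes had small differences. All 51 G2/M and mitosis genes were below 0 in SNU719, with a median of -0.15, and in YCC10 31 were above and 20 below, with a median of 0.02. None passed the fold in either line. HMMR, a spindle and hyaluronan receptor gene, had 24.56 and 21.27 FPKM in SNU719 and 18.64 and 15.72 FPKM in YCC10, and CDC25B, a mitotic phosphatase gene, 74.73 and 67.42 FPKM and 162.9 and 127.2 FPKM. Both come from the 20 members lower in both lines, so their fall in YCC10 does not stand for the list. The siMYB medians of this list were -0.40 and -0.59. Of its 43 members with a window, 24 (55.8%) held the cell cycle element TTTGAA, against 11.9% of tested genes with a window. This share, too, describes the list as chosen and not the effect of the guide. The 48 G1/S and replication genes had medians of -0.05 in SNU719 and 0.10 in YCC10. In SNU719 13 were above and 35 below 0, and in YCC10 43 of 48 were above 0. Their siMYB median in YCC10 was -0.67. CDC6, a replication licensing gene, had 17.45 and 19.72 FPKM in SNU719 and 19.55 and 25.04 FPKM in YCC10. It was 1 of 12 members higher in both lines, against 4 lower in both. The 19 tested genes of the list of known MYB targets had medians of -0.03 and 0.01, and MYC, the growth regulator, had 38.89 and 38.21 FPKM in SNU719 and 44.45 and 32.95 FPKM in YCC10.

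**Figure D5:**
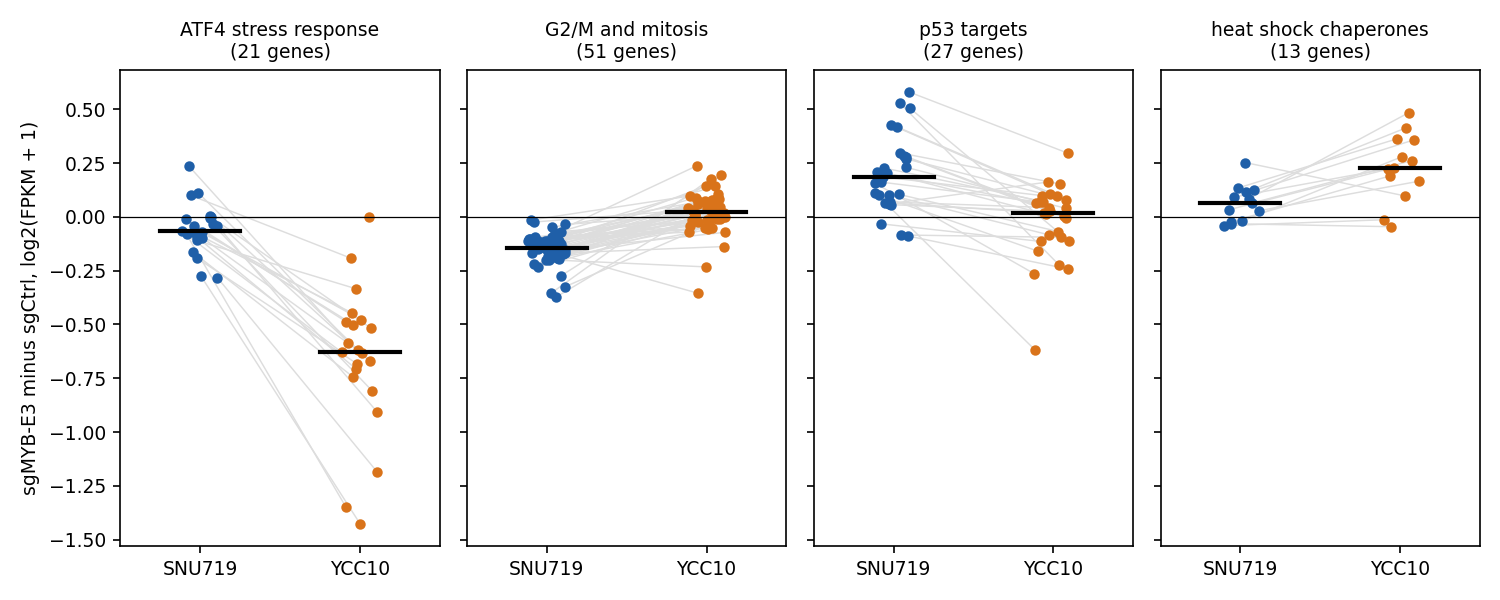
Change with sgMYB-E3 in log2(FPKM + 1) of each member of 4 lists, a grey line joining the SNU719 (blue) and YCC10 (orange) values of 1 gene and a black bar marking the median. Of the ATF4 members 20 of 21 lie below 0 in YCC10, the 51 G2/M members all lie below 0 in SNU719, and 24 of 27 p53 targets lie above 0 in SNU719.

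The p53 target list had 24 of 27 members above 0 in SNU719 (median 0.19) and 16 in YCC10 (median 0.02). CDKN1A, the p21 cell cycle inhibitor, had 42.14 and 56.66 FPKM in SNU719 and 123.8 and 132.8 FPKM in YCC10. PLK2, a stress-induced kinase gene, had 21.56 and 32.76 FPKM in SNU719 and 10.09 and 12.62 FPKM in YCC10, and was called in SNU719 over all genes (limma adjusted p = 0.0149) but not without short RNA genes (0.0667). Of the 27, 3 were past the fold upward in SNU719, against 0.884% of all genes, and none in YCC10, against 0.345%. The 13 heat shock chaperone genes had medians of 0.06 in SNU719 and 0.23 in YCC10. HSPA8, the constitutive HSP70, had 892.7 and 946.6 FPKM in SNU719 and 543.7 and 761.1 FPKM in YCC10.

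Inflammation and antigen presentation genes are given next. No member of the NF-kB or MHC class II list was called. The 24 NF-kB and inflammation genes had medians of 0.12 in both lines, with 19 above 0 in SNU719 and 20 in YCC10. CXCL8, the neutrophil chemokine interleukin 8, had 6.814 and 14.38 FPKM in SNU719 and 55.92 and 66.05 FPKM in YCC10, and the NF-kB subunit RELB had 7.771 and 9.293 FPKM and 2.617 and 3.888 FPKM. The 10 MHC class II genes, which present antigen to T cells, had medians of 0.18 and 0.23, with 7 above 0 in SNU719 and 6 in YCC10. Past the fold upward were 3 of them in YCC10, against 0.345% of all genes, and 1 in SNU719, against 0.884%. HLA-DRA had 0.3802 and 0.7397 FPKM in SNU719 and 10.47 and 18.51 FPKM in YCC10, and CD74, the invariant chain, 0.1787 and 0.3434 FPKM and 4.78 and 8.579 FPKM. Their regulator CIITA had 0.3338 and 0.323 FPKM in SNU719 and 2.521 and 2.28 FPKM in YCC10, a name picked after its values were seen. HLA genes stand on several rows of the table and share reads, so their values are uncertain. Leukocyte markers other than LYZ were low beside these genes, with CD14 at most 0.0527 FPKM and MS4A1 at 0 in all 4 libraries.

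WNT targets had a median of 0.12 in SNU719 and 0.03 in YCC10 over 23 genes. AXIN2, a feedback inhibitor, had 44.55 and 72 FPKM in SNU719 and 117.2 and 125.2 FPKM in YCC10, and the receptor gene TNFRSF19 2.467 and 4.824 FPKM and 14.23 and 17.21 FPKM. Of the 14 intestinal genes 8 were lower in both lines and 1 higher. Past the fold downward were 3 of them in YCC10, against 0.817% of all genes, and none in SNU719, against 0.556%. HNF4A, a master regulator of gut epithelium, had 51 and 41.72 FPKM in SNU719 and 24.72 and 19.54 FPKM in YCC10, and LGALS4, galectin 4, had 413 and 329.7 FPKM and 2.035 and 1.268 FPKM. In YCC10 the trefoil genes TFF1 (23.35 and 10.48 FPKM) and TFF2 (23.77 and 9.286 FPKM), secreted mucosal repair peptides, were the 2 of 10 gastric genes past the fold downward, against 0.817% of all genes. Both were under 2 FPKM in the CRISPRi libraries of SNU719. None of the genes in this paragraph passed the test over both lines. Within SNU719 AXIN2 rose over all genes (limma adjusted p = 0.0393) but did not pass without short RNA genes (0.0605).

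Ribosomal protein genes were slightly lower with the guide and none passed the test. Of 76 genes 71 were lower in both lines, against 3164 of all 11873, with medians of -0.10 in SNU719 and -0.07 in YCC10, and single changes ranged from -0.18 to 0.01 and from -0.21 to 0.24. RPL13A had 1573 and 1400 FPKM in SNU719 and 1147 and 992.6 FPKM in YCC10. Among 20 NRF2 target genes 11 were lower in both lines (medians -0.11 and -0.03). NQO1, a quinone reductase, had 158.5 and 120 FPKM in SNU719 and 52.93 and 49.05 FPKM in YCC10.

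The effects of the enhancer guide and of the siRNA, each against its own control, were compared over both lines. The guide effect minus the siRNA effect passed for 2258 of 12290 genes (1538 higher and 720 lower, 18.4% called) and, without short RNA genes, for 2285 of 11774 (1547 higher and 738 lower, 19.4% called), under the assumption that lone libraries vary like duplicates. With a block for the replicate number it passed for 4185 and 4996 genes. The balance of directions depended on scaling, with 931 higher and 1093 lower after median-of-ratios scaling and 1028 higher and 979 lower after quantile normalization. The siRNA effect itself passed for 5776 genes without short RNA genes. The effects of the guide and the siRNA differed for CREB3L1 (by -0.93, SE 0.09, limma adjusted p = 0.00207) and for LYZ (by -0.87, SE 0.095, limma adjusted p = 0.00262), where the siRNA changed LYZ by -0.05 in SNU719 and 0.37 in YCC10. UBD differed as well (by 0.90, SE 0.081, limma adjusted p = 0.00153). For LCK the difference, 0.23 (SE 0.122, limma adjusted p = 0.232), and for FGF20, -0.17 (SE 0.126, limma adjusted p = 0.389), did not pass. Each difference is a mean over the lines and can hide unlike lines. LCK changed by -0.82 in SNU719 and -0.75 in YCC10 with the guide, but by 0.12 and -2.15 with the siRNA. Its small mean difference thus does not show like effects. UBD changed by 1.04 and 1.15 with the guide and by -0.89 and 1.27 with the siRNA, so its lines were unlike too.

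Short RNA genes, such as microRNA and small nucleolar RNA genes, gave most of the guide calls over both lines, within each line and for the line difference, and 92 of the 2258 calls against the siRNA. Of the 2541 listed, 184 reached 100 FPKM in some CRISPRi library, and 102 of these were listed at 0 in another. MIR6783 was listed at 0 with sgCtrl and 1275 FPKM with sgMYB-E3 in SNU719, and at 1210 FPKM and 0 in YCC10. MIR6846 was at 0 in 3 libraries and at 6122 FPKM in YCC10 sgMYB-E3. A value of 0 here says only that the gene is listed at 0.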

How the data were processed

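RNA-seq values of 16 libraries of 2 cell lines were used. The authors deposited FPKM per gene in 1 table of 33648 rows. Per the submitters' processing notes, bcl2fastq 2.20.0, HISAT2 2.1.0, Cufflinks 2.2.1 and the build hg38 were involved. Per the labels' protocols, libraries came from 1 ug of total RNA with a stranded mRNA kit. FPKM carries no fragment counts, so absolute depth is unknown and its effect on precision cannot be given as an interval. Of 28167 symbols, 2097 on several rows (7578 rows) were summed, and 97.8% matched RefSeq GRCh38.p14. The table held 0 columns of other samples.

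Tests ran in limma 3.58.1 (R 4.3.3). Values were taken as log2(FPKM + 1), and genes had to average 1 FPKM or more, with Benjamini-Hochberg adjustment and a threshold of 0.05. A fold change on this scale understates the change of low genes. The fit over both lines used the 4 CRISPRi libraries with line as covariate (1 residual degree of freedom). limma added 1.96 prior degrees of freedom over all genes and 6.16 without short RNA genes. The SEs and p-values of this fit thus rest mostly on the spread of other genes, and not on that measured between the 2 lines for the gene itself. Within-line effects, their difference and the comparison with siMYB came from 12 group means over all 16 libraries, with 4 residual degrees of freedom from the MYB-set duplicates. These scripts were tested on simulated data.

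The members and lists were chosen with earlier results of these data known. Named genes were MYB, TCF7, MYB family members, tested genes starting within 1 Mb of MYB, up to 12 genes per direction ranked by the smaller of their changes in the 2 lines (protein-coding, 1 row, mean of at least 5 FPKM), up to 5 per direction called within a line or for the line difference, and up to 4 members per described list. The list members chosen in this way had the same sign in both lines and the largest mean changes. Their agreement between the lines thus follows from the choice. UBD, summed from several rows, was named because it was called. Short RNA genes (RefSeq small RNA biotypes, spans under 300 bases, or such symbols) were left out in a version added after seeing the data. Motifs were searched in RefSeq promoter windows. Other alternatives were the pseudocount, the filter, scaling, symbols on several rows, the libraries in the fit, a replicate block and leaving out each replicate.

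Replicate numbers of the MYB set were checked for pairing: replicate differences correlated at 0.535 within SNU719, 0.7 within YCC10 and 0.538 to 0.646 across lines, so a block for the number was tried. The labels do not say what the number marks.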

Additional observations from a re-analysis of the deposited data

Results flagged for a closer look

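The effect of the enhancer guide passed a test of the difference between the lines for 2 genes, compared as a contrast of both effects in the fit of 12 group means without short RNA genes, under the assumption that lone libraries vary like the MYB-set duplicates. SULT1E1 differed by -3.39 on the log2 scale (YCC10 minus SNU719, limma adjusted p = 0.0013), with 0.3538 and 15.65 FPKM in SNU719 and 18.83 and 22.3 FPKM in YCC10. Leaving out any 1 MYB-set library gave adjusted p-values of 0.0025 to 0.0203. GPA33 differed by 1.8 (limma adjusted p = 0.0157), with 30.05 and 7.357 FPKM in SNU719, while the YCC10 libraries held 0.0649 FPKM and 0. A gene this low in YCC10 could not fall there, so the value restates the SNU719 change and does not show a different response. Its call was lost on leaving out any 1 MYB-set library (adjusted p 0.0632 to 0.0978) and with a pseudocount of 0.1 (adjusted p = 1).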

How the results depend on the processing

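Counts of called genes depended on the filter, the scaling and the short RNA genes. Over both lines, against 13 over all genes, limma called 2 with no filter on low values, 4 in the fit of all 16 libraries, 4 in that fit with a replicate block, and 5 without short RNA genes. Without short RNA genes, against 5, it called 1 with a pseudocount of 0.1, 0 with no filter, 13 with a minimum mean of 5 FPKM, 23 after median-of-ratios scaling, 8 after quantile normalization, 11 without symbols on several rows, 3 in the fit of all 16 libraries and 0 with the replicate block. Within SNU719 it called 527 with no filter and 18 without short RNA genes. In that version it called 5 with a pseudocount of 0.1, 387 with no filter, 79 with the replicate block and 5 to 9 on leaving out 1 MYB-set replicate. Within YCC10 it called 345 with no filter, 34 with a minimum mean of 5 FPKM and 1 without short RNA genes. In that version it called 0 with a pseudocount of 0.1, after median-of-ratios scaling, without symbols on several rows and on leaving out any 1 MYB-set replicate, 235 with no filter and 32 with the replicate block. The line difference was called for 608 genes with no filter, 60 with a minimum mean of 5 FPKM and 2 without short RNA genes, and in that version for 1 with a pseudocount of 0.1, 402 with no filter and 1 on leaving out any 1 MYB-set replicate. The comparison with siMYB gave 4185 calls with the replicate block, 4996 with it and without short RNA genes, and 1427 to 1598 over all genes on leaving out 1 replicate. MYB over both lines passed without short RNA genes with a minimum mean of 5 FPKM (-1.03, adjusted p = 0.0239), after median-of-ratios scaling (-1.028, 0.0163) and without symbols on several rows (-1.03, 0.0342). In that version it did not pass with a pseudocount of 0.1 (0.15) or with no filter (0.823). Nor did it in the fit of all 16 libraries (0.721) or in that fit with the replicate block (0.83). Over all genes MYB over both lines passed in none of the tested alternatives. MYB within SNU719 no longer passed with a pseudocount of 0.1 (-1.373, 0.109, and 0.0881 without short RNA genes), after median-of-ratios scaling (-1.329, 0.0692 and 0.0532), after quantile normalization over all genes (-1.382, 0.131) or with the replicate block over all genes (-1.331, 0.0663). On leaving out 1 MYB-set replicate its change stayed -1.331 by construction, with adjusted p from 0.0323 to 0.135 over all genes and 0.0363 to 0.097 without short RNA genes. LCK against siMYB over all genes changed sign after quantile normalization (-0.012, adjusted p = 0.971) and passed in neither case. Of the other alternatives for named genes 937 kept direction and call, 33 gained a call and 127 lost one, and 12 list medians moved while 78 did not. The causes were not tested. Within the CRISPRi set all libraries are numbered 1, so the number could not be a block there, and the line was the covariate that pairs the arms. The unknown depth limits what can be said of genes near 1 FPKM.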
